A study of Mus musculus with 6 samples.

Results

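Transcripts of the constitutive proteasome were followed in mouse skeletal muscle that had received TFEB, a transcription factor that switches on genes of lysosomes and autophagy, or GFP. The members were the probe sets annotated to a single gene whose symbol is Psma, Psmb, Psmc, Psmd, Psmf or Psmg and a digit, with the interferon-inducible Psmb8, Psmb9 and Psmb10 left out. By this rule, which used names and no measured value, there were 74 members of 22626 probe sets, and they read 41 of 12393 genes. Psmc3ip met the rule by its name only. It encodes a meiotic recombination protein and no part of the proteasome, so it is described apart, which left 40 proteasome genes read by 73 probe sets. They lay on 16 chromosomes of the mouse RefSeq gene table (GRCm38.p6), with at most 6 on any of them.

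The proteasome is the protease that destroys proteins tagged with ubiquitin. Its 20S core is a barrel of stacked rings, in which alpha subunits (Psma genes) form the gated outer rings and beta subunits (Psmb genes) the inner rings that hold the peptidase sites. The 19S cap sits on the end of the barrel, where a base with a ring of ATPases (Psmc genes) unfolds the substrate and a lid (Psmd genes) removes its ubiquitin. In skeletal muscle the proteasome breaks down a large share of the contractile proteins, and its subunit transcripts are known to rise together in several forms of wasting. Factors of the Nfe2l1 type are known to drive the subunit genes together when proteasome activity is short.

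The TFEB group was 3 wild-type C57BL/6 mice whose muscle was injected with an adeno-associated virus (AAV) vector for the murine Tcfeb cDNA, and the GFP group 3 such mice given the same kind of vector for GFP. All 6 mice were 1 month old by their labels, although the study calls its injected mice adult. Each mouse gave 1 Affymetrix array, and the values are log2 levels, 1 for each probe set and array. The study's text names the CMV promoter, which is active in many cell types, and the muscle injected was not given for the arrays in the sources used here.

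Skeletal muscle markers were bright on every array, and 0 of 13 averaged under the array median. The Tfeb probe set itself was lower in the TFEB group, at 7.61 to 7.92 in TFEB muscles and 8.47 to 8.58 in GFP muscles, so it does not check delivery of the vector. A difference over 2-fold separated any 2 TFEB arrays at 45 to 101 probe sets, GFP replicates 1 and 3 at 87, and GFP replicate 2 from these at 844 and 725, so this array stood apart. Among the 74 members, 0 probe sets differed over 2-fold between any arrays of the same group. The medians of the arrays lay between 6.44 and 6.56.

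Most proteasome genes, each read by its brightest probe set, differed little between TFEB and GFP muscles. Of the 40 genes, 3 were higher in TFEB muscles (Psmb5, Psmd13 and Psmd10), 5 were lower (Psmd7, Psmd1, Psma3, Psmb7 and Psmb2) and 32 did not pass an adjusted p of 0.05 in limma. Over all genes tested, 33.6% passed by that rule, 16.8% higher and 16.8% lower, against 7.5% higher and 12.5% lower among the members. The lower share did not stay under the background in every setting. It was 17.5% against 11.4% of all genes by the methods' two-tailed test, 25% against 18.8% with the mean of a gene's probe sets, 30% against 22.5% with the probe set of smallest p, and 20% against 17.1% with the brightest probe set free of shared-transcript marks. When a change of at least 1.5-fold was also asked for, Psmd7 was the sole proteasome gene left, at 1.55-fold lower, where 13.5% of all genes passed both limits, 4.9% lower and 8.62% higher. The count of genes higher past both limits was 0, and at an unadjusted p under 0.05 limma had 3 genes higher and 8 lower, where 21.7% of all genes were higher and 24.2% lower. The methods' two-tailed test with adjustment had 2 higher and 7 lower, where 10.9% of all genes were higher. Leaving out 1 array gave 1 to 3 genes higher and 3 to 5 lower, and Psmb5, Psma3, Psmd1 and Psmd7 passed in each such fit. In these fits 10.3% to 21.1% of all genes were higher and 8.88% to 19.5% lower.

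For most genes the brightest probe set bounded the size of these differences closely. The median log2 fold change of the 40 genes was -0.041, and that of all 12393 genes was -0.046. For 38 of the 40 genes the whole 95% confidence interval of the fold change lay within 1.5-fold in either direction, against 63.8% of all genes. Psmd7 and the ATPase gene Psmc4 were the exceptions. Dimmer probe sets had intervals that crossed this limit (0.585 in log2), reaching -0.95 and -1.40 for Psmc6, -0.74 for Psmd9 and 0.66 for Psmd13. Of the 40 genes, 39 averaged above the median level of all probe sets, and no comparison with genes of like brightness was made. A member spanned a median of 0.225 over the 6 arrays from its lowest to its highest log2 value, against 0.466 for all genes. Every value of the TFEB muscles lay above every value of the GFP muscles in 4 members and below in 13, and the groups overlapped in 23. Over all genes the groups did not overlap in 51.1%, with 22.9% above and 28.2% below.

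**Figure D1:**
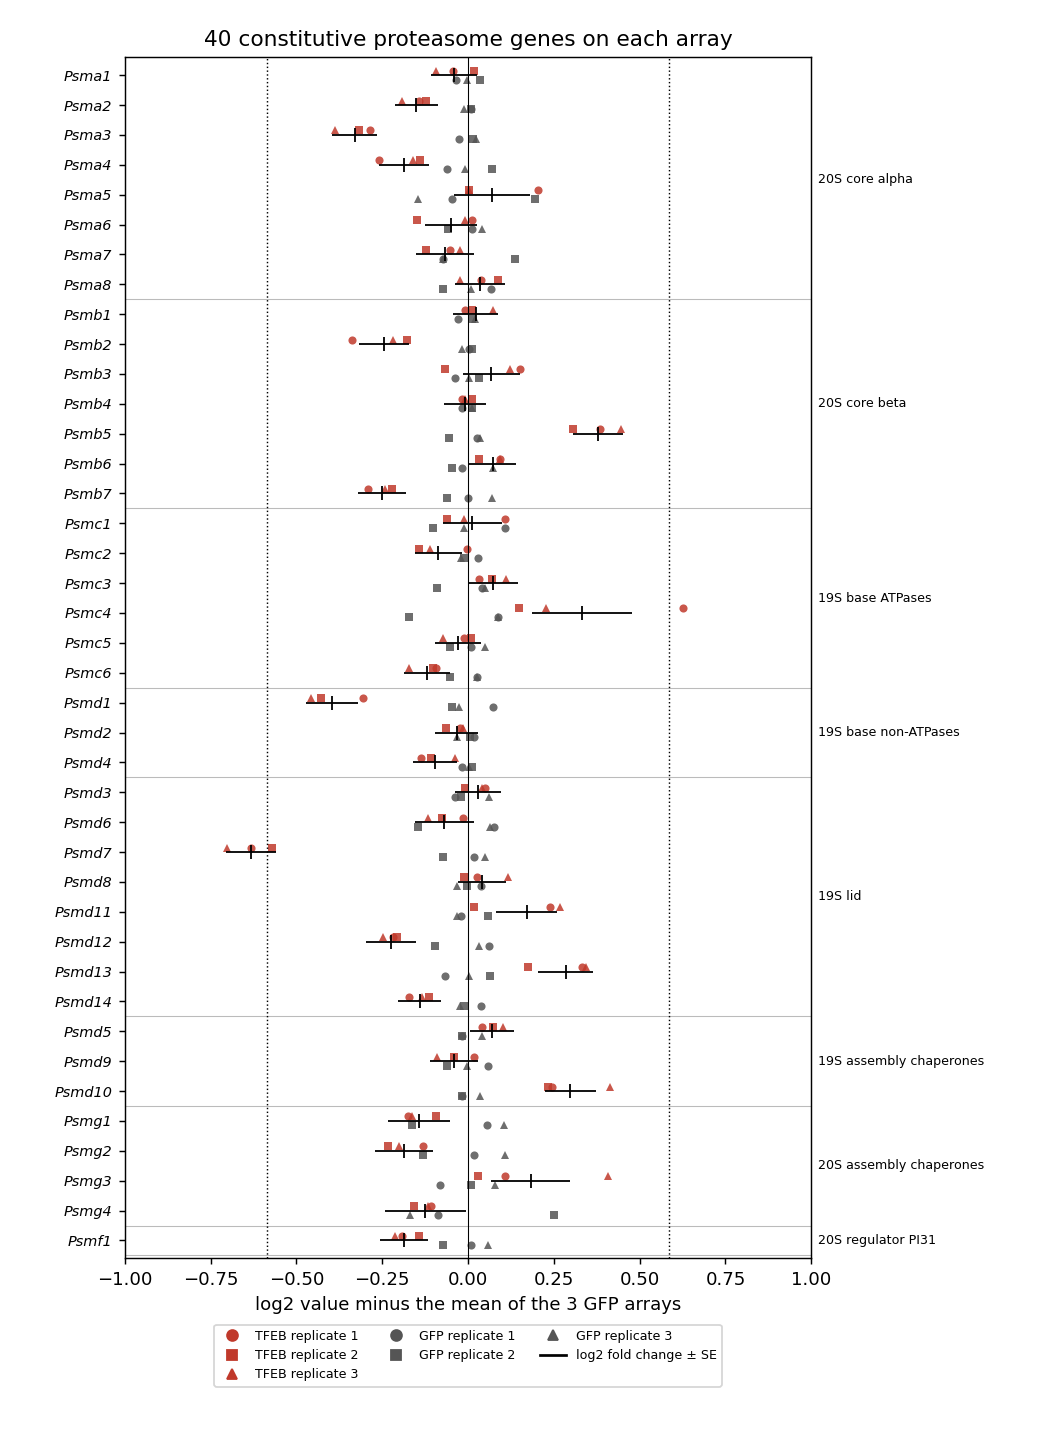
Each of the 40 proteasome genes on each array, as its log2 value minus the mean of the 3 GFP arrays (red, TFEB muscles; grey, GFP muscles), with the log2 fold change ± SE as a black bar and dotted lines at 1.5-fold. Points cluster within 0.25 of 0 for most genes, and Psmd7 lies farthest to the left.

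In the alpha ring, 1 of the 8 genes passed by its brightest probe set. Psma3 read 11.25, 11.22 and 11.15 in TFEB muscles, against 11.51, 11.55 and 11.56 in GFP muscles. The TFEB values were all under the GFP values, and the gene was lower by a log2 fold change of -0.33 ± 0.066 (SE, n = 3 and 3, limma adjusted p = 0.011). Psma4 and Psma2 also had non-overlapping groups, with TFEB values below, but their log2 fold changes of -0.19 and -0.15 did not pass (limma adjusted p = 0.094 and 0.11). The other ring members, Psma1, Psma5, Psma6 and Psma7, had overlapping groups and fold changes between -0.07 and 0.07 by their brightest probe sets. A dimmer probe set of Psma6 was lower (-0.28, limma adjusted p = 0.023). Psma8, the testis form of an alpha subunit, read 3.19 to 3.35 over all arrays, near the low end of the table, and its fold change was 0.03. The median of the 8 genes was -0.06.

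In the beta ring, 3 of the 7 genes passed, in both directions. Psmb5, which carries the chymotrypsin-like site, read 11.55, 11.47 and 11.61 in TFEB muscles, against 11.19, 11.11 and 11.20 in GFP muscles. It was the core gene that was higher, without overlap and by 1.30-fold (log2 fold change 0.38 ± 0.072 SE, n = 3 and 3, limma adjusted p = 0.0096). Psmb7, which carries the trypsin-like site, read 11.30, 11.37 and 11.35 in TFEB muscles, against 11.59, 11.53 and 11.66 in GFP muscles. All of its TFEB values were under its GFP values, and it was lower, at -0.25 ± 0.070 (SE, n = 3 and 3, limma adjusted p = 0.034). This call was lost without any 1 array other than GFP replicate 2, and over all alternatives its limma adjusted p reached 0.11.

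The caspase-like site is carried by Psmb6. It read 10.95, 10.89 and 10.95 in TFEB muscles, against 10.84, 10.81 and 10.93 in GFP muscles, so its groups overlapped, with a log2 fold change of 0.07 ± 0.068 (SE, n = 3 and 3, limma adjusted p = 0.45). The 3 catalytic subunits of the core therefore had a gene that was higher, a gene that was lower and a gene that did not pass. Psmb2, a non-catalytic ring member, read 9.69, 9.85 and 9.81 in TFEB muscles and 10.03, 10.04 and 10.01 in GFP muscles. It was lower without overlap, at -0.24 ± 0.072 (SE, n = 3 and 3, limma adjusted p = 0.041). Leaving out any 1 of the 6 arrays ended this call, and its limma adjusted p reached 0.14 over the alternatives. Psmb1, Psmb3 and Psmb4 had fold changes of 0.02, 0.07 and -0.01 and overlapping groups.

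The promoters of the members were searched for motifs of factors tied to the proteasome or to TFEB, in RefSeq windows (GRCm38.p6) of 250 bases before to 50 bases after the gene's start, on both strands. Windows were found for 32 of the 40 genes. The antioxidant response element core TGACTCAGC was in 0 of the 32 windows, against 0.503% of the 27025 windows of all genes. Its looser form TGACNNNGC, which contains the core as a special case, was in 5 windows (Psmb5, Psmb6, Psmc6, Psmd12 and Psmd9), or 15.6%, against 13.99% of all windows. The E-box CACGTG, the inner part of the motif that TFEB is known to bind, was in 2 windows, Psma4 and Psmd9, or 6.25%, against 8.09% of all windows, and the longer TCACGTGA was in 0, against 1.12%. CCAAT was in 11 windows, or 34.4%, against 41.1%. The median GC content of the windows was 56.25%, against 52.75% for all genes. Stretches before the start are shown for the catalytic genes Psmb5 and Psmb6 and for the E-box genes, with the matched letters in capitals (the looser element in the first pair, the E-box in the other pair). They are chr14:54617996-54618115 on the minus strand for Psmb5, chr11:70525237-70525356 on the plus strand for Psmb6, chr9:54950709-54950858 on the plus strand for Psma4 and chr5:123228070-123228189 on the plus strand for Psmd9.
Psmb5: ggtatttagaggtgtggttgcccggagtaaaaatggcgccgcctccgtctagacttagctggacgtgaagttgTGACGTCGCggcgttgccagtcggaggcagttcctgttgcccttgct
Psmb6: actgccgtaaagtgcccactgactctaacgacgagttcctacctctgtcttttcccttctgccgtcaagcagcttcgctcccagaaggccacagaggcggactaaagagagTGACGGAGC
Psma4: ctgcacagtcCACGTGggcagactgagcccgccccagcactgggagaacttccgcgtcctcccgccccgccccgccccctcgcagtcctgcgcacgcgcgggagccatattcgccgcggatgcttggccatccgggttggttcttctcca
Psmd9: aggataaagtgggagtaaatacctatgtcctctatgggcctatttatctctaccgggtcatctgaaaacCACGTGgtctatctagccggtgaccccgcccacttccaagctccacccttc
The genes that hold the looser element had log2 fold changes of both signs, 0.38 for Psmb5, 0.07 for Psmb6, -0.04 for Psmd9, -0.12 for Psmc6 and -0.22 for Psmd12. The E-box gene Psma4 had one of -0.19, and neither it nor Psmd9 passed by the brightest probe set. Dimmer probe sets of Psmd9 (-0.49) and Psmc6 (-0.70 and -0.87) were lower (limma adjusted p = 0.016, 0.0045 and 0.026).

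In the base of the cap, 0 of the 6 ATPase genes passed in limma by their brightest probe sets. At an unadjusted p under 0.05 the count was also 0, as it was by the methods' two-tailed test with adjustment. Dimmer probe sets of Psmc6 (-0.70 and -0.87) and Psmc2 (-0.33) were lower (limma adjusted p = 0.0045, 0.026 and 0.012), as described below. By the brightest probe sets, Psmc4 had the largest fold change of the 6, and it rested on an uneven set of values. It read 11.08, 10.60 and 10.68 in TFEB muscles, against 10.54, 10.28 and 10.54 in GFP muscles, which did not overlap. TFEB replicate 1 was the highest by a wide margin and GFP replicate 2 the lowest, and the log2 fold change of 0.33 ± 0.15 (SE, n = 3 and 3) did not pass (limma adjusted p = 0.12). The other ATPase genes, Psmc1, Psmc2, Psmc3, Psmc5 and Psmc6, had fold changes between -0.12 and 0.07 by their brightest probe sets. The median of the 6 was -0.01.

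Of the 3 other base subunits, Psmd1 was lower and Psmd2 and Psmd4 did not pass by the brightest probe set. Psmd1, a large scaffold that binds ubiquitin receptors, read 10.78, 10.66 and 10.63 in TFEB muscles, against 11.16, 11.04 and 11.06 in GFP muscles. The groups were separate, with a log2 fold change of -0.40 ± 0.076 (SE, n = 3 and 3, limma adjusted p = 0.0098). Its scaffold partner Psmd2 had a fold change of -0.03 with overlapping groups. Psmd4, a ubiquitin receptor, had one of -0.10 (limma adjusted p = 0.29), and a dimmer probe set of it was lower (-0.34, limma adjusted p = 0.011).

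In the lid, Psmd7 was lower, Psmd13 was higher and 6 of the 8 genes did not pass. Psmd7, the partner that holds the deubiquitinase Psmd14 in its active shape, read 9.83, 9.89 and 9.76 in TFEB muscles, against 10.48, 10.39 and 10.51 in GFP muscles. This was the largest fold change of the 40 genes by their brightest probe sets, with a wide gap between the groups (-0.63 ± 0.073 SE, n = 3 and 3, limma adjusted p = 0.0018). Psmd14 itself read 10.23, 10.29 and 10.27 in TFEB muscles, against 10.44, 10.39 and 10.38 in GFP muscles. Its groups did not overlap, but the fold change of -0.14 did not pass (limma adjusted p = 0.13).

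Psmd13, a structural lid subunit, read 9.21, 9.05 and 9.22 in TFEB muscles, against 8.81, 8.94 and 8.88 in GFP muscles. It was higher without overlap, by a log2 fold change of 0.28 ± 0.079 (SE, n = 3 and 3, limma adjusted p = 0.034). The call was lost without replicate 1 or 3 of either group. Its adjusted p, in limma or the methods' two-tailed test, reached 0.11 over the alternatives. Psmd12, another structural subunit, lay just outside the limit. It read 10.38, 10.39 and 10.35 in TFEB muscles, against 10.66, 10.50 and 10.63 in GFP muscles, a fold change of -0.22 (limma adjusted p = 0.054). Psmd3, Psmd6, Psmd8 and Psmd11 had fold changes between -0.07 and 0.17 and overlapping groups by their brightest probe sets. Of the dimmer probe sets of Psmd11, 2 were lower, as described below.

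Core and cap were set side by side to see whether the parts of the complex moved apart. The 15 core genes had a median log2 fold change of -0.041 and the 17 cap genes one of -0.033, with 1 higher and 3 lower in the core and 1 higher and 2 lower in the cap. Both medians were near that of all genes, and both turned positive, at 0.03 and 0.04, when the arrays were scaled to equal levels of fast fibre contractile genes, while the cap median alone was just above 0 (0.00064) with quantile normalization repeated. Without GFP replicate 2 the core median was -0.0017 and the cap median -0.056. Core genes ranged from -0.33 for Psma3 to 0.38 for Psmb5, and cap genes from -0.63 for Psmd7 to 0.33 for Psmc4. The difference between the medians of the parts was -0.0073. The core mean minus the cap mean on each array had an SD of 0.043 between replicate arrays, pooled over the groups. The difference between the parts was described and not tested.

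On each array, the mean deviation of the genes from their own 6-array means was read as well. For the core it was -0.015, -0.033 and -0.020 in TFEB muscles, against 0.006, 0.038 and 0.024 in GFP muscles. For the cap it was 0.014, -0.061 and -0.031 in TFEB muscles, against 0.055, -0.017 and 0.041 in GFP muscles. The core groups did not overlap and the cap groups did, although all these deviations were small. For all genes the deviation was 0.007, 0.017 and 0.034 in TFEB muscles, against -0.038, 0.004 and -0.024 in GFP muscles. Those groups did not overlap either, with the TFEB values above, whereas the TFEB values of the core were below. This contrast holds for means only. Over all genes the mean log2 fold change was 0.039 and the median -0.046, with 6948 of 12393 genes below 0. By the median, the core (-0.041) was near all genes. The core minus the cap was -0.029, 0.028 and 0.0105 in TFEB muscles, against -0.049, 0.055 and -0.017 in GFP muscles. The TFEB values of that difference lay inside the range of the GFP values.

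**Figure D2:**
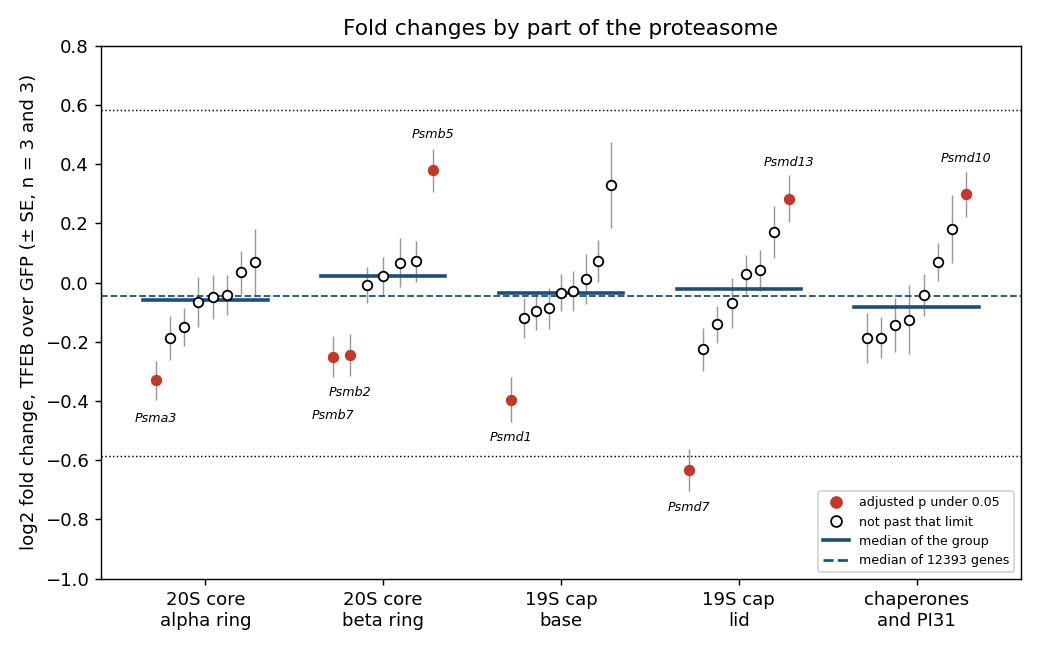
Log2 fold changes (TFEB over GFP, ± SE, n = 3 and 3) of the 40 genes by part of the proteasome, with filled red points for genes at an adjusted p under 0.05, blue bars for the median of each part and a dashed line for the median of all genes. The medians run from -0.08 for chaperones and PI31 to 0.02 for the beta ring on the deposited scale (with fast fibre scaling those of core and cap turn positive), and called genes lie on both sides of 0 in the beta ring and the lid.

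Of the 7 assembly chaperones, 1 passed by its brightest probe set, and the core regulator Psmf1 did not. Psmd10 (gankyrin), a chaperone of the cap's base, read 7.73, 7.72 and 7.90 in TFEB muscles, against 7.47, 7.47 and 7.52 in GFP muscles. It was higher without overlap, by 0.30 ± 0.076 (SE, n = 3 and 3, limma adjusted p = 0.025). Without TFEB replicate 3, GFP replicate 1 or GFP replicate 3 it no longer passed, and its limma adjusted p reached 0.078 over the alternatives. The other base chaperones, Psmd5 and Psmd9, had fold changes of 0.07 and -0.04, and a dimmer probe set of Psmd9 was lower (-0.49, limma adjusted p = 0.016). By their brightest probe sets, none of the 4 chaperones of the core (Psmg1, Psmg2, Psmg3 and Psmg4) passed in limma or by the methods' two-tailed test with adjustment. At an unadjusted p under 0.05 there were also 0. The smallest p among them was that of Psmg2, which read 9.0, 8.90 and 8.93 in TFEB muscles, against 9.15, 9.0 and 9.24 in GFP muscles (-0.19, limma adjusted p = 0.13). A dimmer probe set of Psmg2 was lower (-0.32, limma adjusted p = 0.047). Psmf1 (PI31), a regulator of the core, read 7.38, 7.43 and 7.36 in TFEB muscles, against 7.58, 7.5 and 7.63 in GFP muscles. Its groups were separate, but its fold change of -0.19 did not pass (limma adjusted p = 0.083).

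Probe sets of the same gene often differed. A gene was represented by its brightest probe set, and 19 of the 40 genes had more than 1. Of the 73 probe sets, 4 were higher, 15 lower and 54 did not pass, where 32.6% of all probe sets passed, 14.5% higher and 18.1% lower. Past 1.5-fold as well were 3 probe sets, all lower (1 of Psmd7 and 2 of Psmc6), against 13.6% of all probe sets, 6.11% lower and 7.51% higher. The median of the 73 was -0.09, and that of all probe sets -0.06. The lower probe sets belonged to 12 genes and the higher ones to 3. In 8 genes the probe sets differed in whether they passed (Psma6, Psmc2, Psmc6, Psmd4, Psmd7, Psmd9, Psmd11 and Psmg2) and in 8 they differed in sign, but in 0 did they pass in opposite directions. Probe sets whose names end in plain _at, without a mark for shared transcripts, made up 43 of the 73 and 11 of the 15 lower ones.

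Psmc6, an ATPase of the base, had the widest spread between its probe sets. Its brightest probe set read 10.30, 10.29 and 10.22 in TFEB muscles, against 10.42, 10.34 and 10.42 in GFP muscles (-0.12, limma adjusted p = 0.21). Another read 9.30, 9.25 and 9.01 in TFEB muscles, against 9.99, 9.75 and 9.90 in GFP muscles, and was lower, at -0.70 ± 0.11 (SE, n = 3 and 3, limma adjusted p = 0.0045). A further one read 7.13, 6.59 and 6.39 in TFEB muscles, against 7.89, 7.31 and 7.51 in GFP muscles, and was lower, at -0.87 ± 0.22 (SE, n = 3 and 3, limma adjusted p = 0.026). All 3 had TFEB values below GFP values, and the brightest of them showed the smallest difference.

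Psmd11, a lid subunit, had 6 probe sets of both signs. The brightest read 10.76, 10.54 and 10.79 in TFEB muscles, against 10.50, 10.58 and 10.49 in GFP muscles (0.17, limma adjusted p = 0.18), with overlap. Of the other 5, all with negative fold changes between -0.28 and -0.08, 2 were lower (-0.28 and -0.27, limma adjusted p = 0.039 and 0.035). The sign for this gene thus depended on the probe set read, and the positive one has a name that ends in _s_at, a mark for shared transcripts.

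In Psma6, Psmc2 and Psmd4 the brightest probe set did not pass and the next brightest did. For Psma6 and Psmc2 the brightest has a name that ends in _x_at, also such a mark, and the next one ends in plain _at. The brightest Psma6 probe set had a fold change of -0.05 and the next one -0.28 (10.77, 10.82 and 10.74 in TFEB muscles, against 11.10, 10.98 and 11.09 in GFP muscles, limma adjusted p = 0.023). The corresponding values were -0.09 and -0.33 for Psmc2 (10.77, 10.86 and 10.77 in TFEB muscles, against 11.12, 11.10 and 11.17 in GFP muscles, limma adjusted p = 0.012). For Psmd4 they were -0.10 and -0.34 (10.25, 10.25 and 10.15 in TFEB muscles, against 10.57, 10.54 and 10.57 in GFP muscles, limma adjusted p = 0.011). In each of these the TFEB values of the lower probe set were separate from the GFP values.

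Psmd9 and Psmg2 followed the same form, with -0.04 and -0.49 for Psmd9 (limma adjusted p = 0.68 and 0.016) and -0.19 and -0.32 for Psmg2 (limma adjusted p = 0.13 and 0.047). The dimmer Psmd9 probe set read 5.51, 5.42 and 5.14 in TFEB muscles, against 5.85, 5.77 and 5.91 in GFP muscles. In contrast, Psmd7 was lower by its brightest probe set and by a dimmer one (-0.31, limma adjusted p = 0.020), while the dimmest did not pass (-0.21, limma adjusted p = 0.12). Both probe sets of Psmd13 were higher (0.28 and 0.44, limma adjusted p = 0.034 and 0.013). The genes whose probe sets differed in sign without any passing were Psma5, Psmb1, Psmb3, Psmb4, Psmc1 and Psmf1, with fold changes between -0.19 and 0.10.

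**Figure D3:**
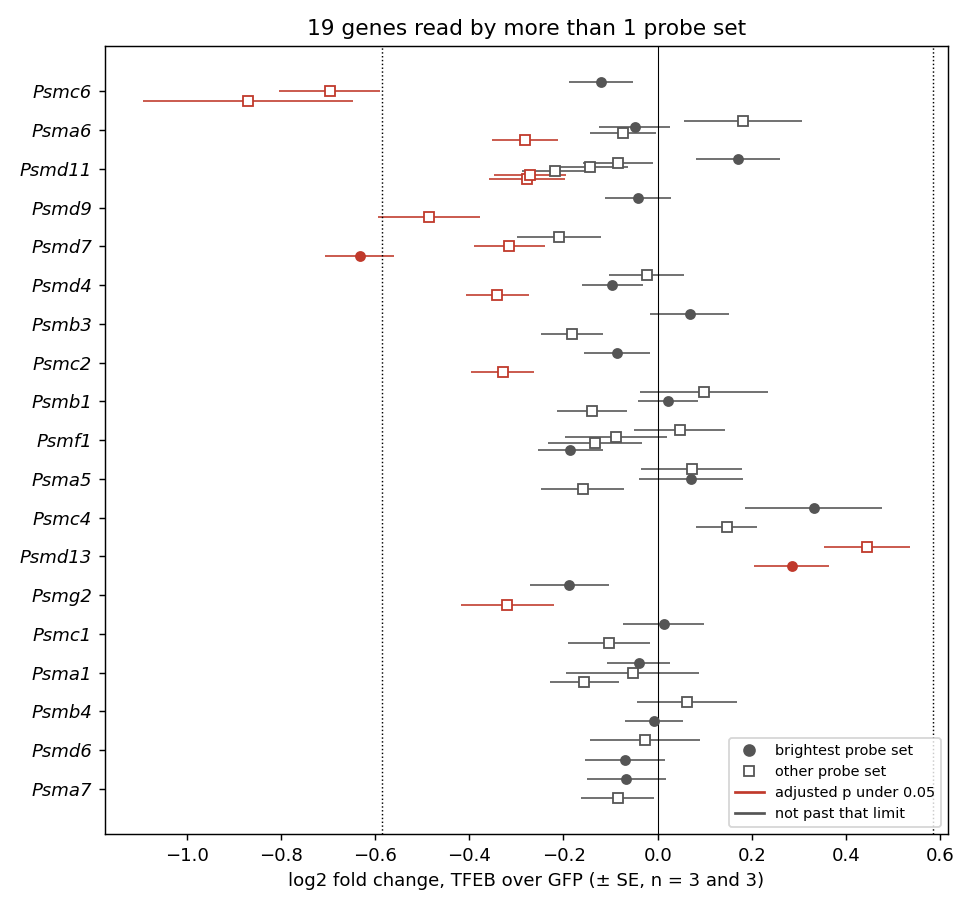
Log2 fold changes (TFEB over GFP, ± SE, n = 3 and 3) of every probe set of the 19 genes read by more than 1, with circles for the brightest probe set, open squares for the others and red for an adjusted p under 0.05. Psmc6 spans the widest range, from -0.87 to -0.12, and in 0 genes do red points lie on both sides of 0.

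The 3 catalytic subunits of the core have interferon-inducible counterparts that replace them in the immunoproteasome, which is abundant in immune cells. Psmb8, which replaces Psmb5, read 7.67, 8.21 and 8.08 in TFEB muscles, against 6.97, 9.94 and 6.94 in GFP muscles. Psmb9, which replaces Psmb6, read 7.51, 7.88 and 7.85 in TFEB muscles, against 6.72, 9.91 and 6.68 in GFP muscles. Psmb10, which replaces Psmb7, read 8.50, 8.64 and 8.78 in TFEB muscles, against 8.0, 10.26 and 8.13 in GFP muscles. In each, GFP replicate 2 was the highest of the 6 arrays and the other GFP arrays the lowest. On all arrays 0 of the 3 passed in limma, with 0 at an unadjusted p under 0.05 and 0 by the methods' two-tailed test. Without GFP replicate 2, all 3 were higher in TFEB muscles, by 1.03, 1.05 and 0.57 (limma adjusted p = 0.0026, 0.0011 and 0.0058), where 21.1% of all genes were higher in that fit. Macrophage, T cell and NK cell markers were mostly high on the same array. Its median log2 gap to the mean of the other GFP arrays was 2.38 for 15 macrophage markers and 2.51 for 10 T and NK cell markers, whose summed signal was 428 to 539 in TFEB muscles and 313 to 1411 in GFP muscles. Of the T and NK cell markers, 10 of 10 averaged under the array median. The part of these cells in the Psmb8, Psmb9 and Psmb10 values was not tested.

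No constitutive gene had a gap of that size. The value of GFP replicate 2 differed from the mean of the other GFP arrays by -0.25 to 0.38 among the 40 genes, against 2.19 to 3.21 for Psmb8, Psmb9 and Psmb10. A gap over 2-fold was found in 0 of the 40 genes and in 503 of all 12393 genes, so it was rare over all genes as well. Without that array 3 constitutive genes were higher and 5 lower, as with it, but Psmb2 lost its call and Psmd12 gained one. In that fit 21.1% of all genes were higher and 19.5% lower. The constitutive and inducible genes of a pair were not tested against each other.

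**Figure D4:**
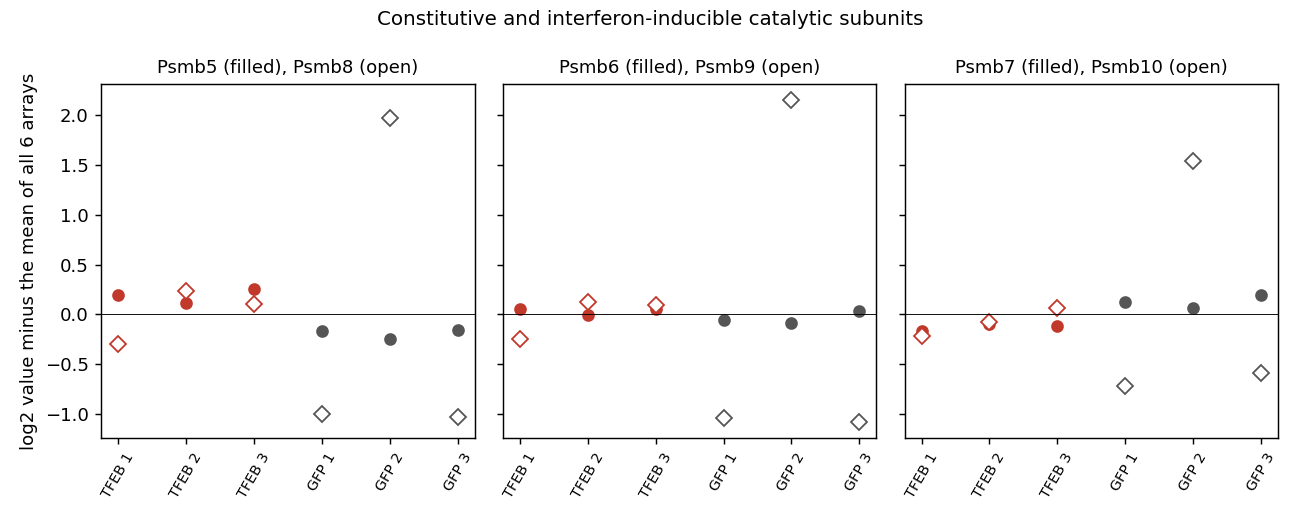
The constitutive catalytic genes (filled circles) and their interferon-inducible counterparts (open diamonds) on each array, as the log2 value minus the mean of the 6 arrays (red, TFEB muscles; grey, GFP muscles). GFP replicate 2 stands far above the other arrays for Psmb8, Psmb9 and Psmb10 and not for Psmb5, Psmb6 and Psmb7.

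Genes around the proteasome were read from 5 lists, with 34 genes measured. Of these, 3 were higher, 8 lower (23.5%) and 23 did not pass, against the 16.8% of all genes in each direction, with a median of -0.03. Among proteasome activators, Psme3 and Psme4 were lower and Psme1 did not pass. Psme4 (PA200), which caps the core without the need for ubiquitin, read 11.14, 11.15 and 11.09 in TFEB muscles, against 11.78, 11.58 and 11.71 in GFP muscles. It was lower without overlap, at -0.56 ± 0.076 (SE, n = 3 and 3, limma adjusted p = 0.0031). Psme3, of the nuclear activator PA28 gamma, was lower, at -0.37 (limma adjusted p = 0.010). Psme1, an interferon-inducible PA28 subunit, read 9.70, 9.95 and 9.76 in TFEB muscles, against 9.47, 11.15 and 9.60 in GFP muscles, again with GFP replicate 2 on top (-0.27, limma adjusted p = 0.65).

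The list of regulators of proteasome genes also held Zfand2a and Zfand5, whose proteins bind the proteasome. Of its 10 measured genes, 1 was higher and 2 were lower. Zfand2a, an arsenite-inducible protein that associates with the proteasome, read 8.75, 8.42 and 8.79 in TFEB muscles, against 7.49, 7.44 and 7.61 in GFP muscles. It was higher by 1.14 ± 0.12 (SE, n = 3 and 3, limma adjusted p = 0.0013), and no constitutive gene moved by as much. Zfand5, a proteasome-binding protein known from muscle wasting, was lower, at -0.49 (limma adjusted p = 0.0028). Ngly1, the deglycosylase that processes Nfe2l1, was lower, at -0.54 (limma adjusted p = 0.0047). The transcripts of Nfe2l1 and Nfe2l2 had fold changes of 0.03 and 0.05 and did not pass. Mafg, Maff, Mafk and Stat3 did not pass either, although Stat3 (0.73) did without GFP replicate 2 and with array weights.

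Among other partners of the proteasome, 2 of 10 were higher and 2 lower by their brightest probe sets. Ube3a (-0.19) and Usp14 (-0.05) did not pass by these. Both were lower with the mean of all probe sets and with the probe set of smallest p. Their fold changes reached -1.48 and -0.60 over the alternatives, and Txnl1 was lower with the smallest p alone (-0.32). Sem1, Pomp and Uchl5 passed in no alternative. Akirin2, which carries proteasomes into the nucleus, was higher by 0.28 (limma adjusted p = 0.018) and Ubfd1 by 0.29 (limma adjusted p = 0.0496, just under the limit). Ecpas, a scaffold that holds core and cap together, was lower, at -0.26 and the ubiquitin ligase Ube3c at -0.24 (limma adjusted p = 0.041 and 0.040). These calls were not stable, being lost in 8 of 17 alternatives for Akirin2, 10 for Ubfd1, 8 for Ecpas and 7 for Ube3c. Akirin2, Ecpas and Ube3c lost theirs without any 1 array other than GFP replicate 2, and Ubfd1 without any other than TFEB replicate 2. Over the alternatives their adjusted p-values, in limma or the methods' two-tailed test, reached 0.60, 0.13, 0.12 and 0.15. Of the 8 ubiquitin and shuttle genes measured, 0 were higher in limma and 2 lower, with 1 higher and 2 lower at an unadjusted p under 0.05 and 0 of either by the methods' two-tailed test. Rad23b, which ferries ubiquitinated proteins to the proteasome, read 9.24, 9.41 and 8.84 in TFEB muscles, against 9.90, 9.73 and 9.85 in GFP muscles. It was lower, at -0.66 ± 0.15 (SE, n = 3 and 3, limma adjusted p = 0.017), and Ufd1, a cofactor of the segregase Vcp, at -0.53 (limma adjusted p = 0.026). Rad23b did not pass without GFP replicate 1 or 3, nor Ufd1 without TFEB replicate 2 or 3 or GFP replicate 3. Over the alternatives their adjusted p-values, in limma or the methods' two-tailed test, reached 0.072 and 0.089.

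Psmc3ip, the gene that only shares a name with the family, read 5.60, 5.70 and 5.93 in TFEB muscles, against 6.40, 6.34 and 6.63 in GFP muscles. It was lower without overlap, at -0.71 ± 0.12 (SE, n = 3 and 3, limma adjusted p = 0.0061), so counting it among the members would have made 2 genes past 1.5-fold.

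Marker lists of several cell types also differed between the groups, where 16.8% of all genes were higher and 16.8% lower. Fibroblast markers had 6 of 8 higher, and their summed linear signal was 24001 to 30279 in TFEB muscles and 13631 to 15106 in GFP muscles. Endothelial markers had 5 of 8 higher, with sums of 2125 to 2438 in TFEB muscles and 1219 to 1468 in GFP muscles. In these lists 0 markers averaged under the array median. Macrophage markers had 1 of 15 higher and 3 of 15 under the array median, with sums of 7929 to 14744 in TFEB muscles and 2606 to 14055 in GFP muscles. Their median log2 fold change was 1.29, and 14 of 15 had one above 0. In 12 of them GFP replicate 2 lay over 2-fold above the mean of the other GFP arrays. Satellite cell and myoblast markers had 5 of 10 higher (Myh3, Myog, Chrna1, Myf5 and Vcam1), with sums of 11979 to 14940 in TFEB muscles and 7534 to 8570 in GFP muscles. These sums include Des, which is also in the skeletal muscle list and read 12.72 to 13.07 over the arrays. Pax7, Myod1 and Cdh15 did not pass (limma adjusted p = 0.16, 0.35 and 0.45). Of the neutrophil markers 2 of 5 were higher, S100a8 (3.25) and S100a9 (0.60), with sums of 303 to 451 in TFEB muscles and 141 to 170 in GFP muscles. Schwann cell markers had a median of -0.35 with 1 of 4 lower, and adipocyte markers one of -0.74 with 1 of 5 higher. Proteasome genes are expressed by every cell type, and the part of these cells in the values above was not tested. In whole muscle, fewer cells of a type and less RNA per cell cannot be told apart.

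A sign of RNA quality differed by group as well. For beta-actin, the log2 value at the 3′ end minus that at the 5′ end of the transcript was 0.22 to 0.34 in TFEB muscles and 0.037 to 0.077 in GFP muscles. The same difference for Gapdh was -0.038 to 0.053 in TFEB muscles and -0.071 to -0.061 in GFP muscles. Where the probe sets of Psmc6, Psmd9 or Psmd11 lie along their transcripts was not used here, and the part of RNA quality in their differences was not tested.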

How the data were processed

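Total RNA of 6 muscles was read on Affymetrix arrays, 1 per mouse, and grouped by the GEO labels. The values that the authors deposited are log2 levels. Per the labels they came from RMA in the affy package, which subtracts background, equalizes the distributions of the arrays and summarizes each probe set, in versions not given in the sources used here. That equalizing would partly remove a change shared by most transcripts. Precision is limited by the number of arrays, which have no count depth.

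After removal of 64 control probe sets, 22626 were fitted in limma 3.58.1 under R 4.3.3 (lmFit, eBayes, 2 groups, two-sided), with Benjamini-Hochberg adjustment over all 22626. A gene passed at an adjusted p under 0.05, and a further limit was 1.5-fold. Both are named with the gene list of the study, whose array methods were not read here. Adjusted p-values come from this fit, each log2 fold change is TFEB minus GFP, and a gene stands by its probe set of highest mean. The fit was tested on simulated data. Of the probe sets tested, 20380 had 1 gene symbol, 691 several and 1555 none, and those with several or none were not named.

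The members and lists were chosen with earlier results of these data known. Named are all genes past the adjusted p limit, the gene of smallest p in each class without one, genes whose probe sets disagree, and, in the other lists, genes past both limits with the immunoproteasome and activators. Others named, among them Psma2, Psma4, Psmd12 and Psmd14, and the genes of other lists past the adjusted p limit alone, were chosen after their values were seen. Lists were described by counts and medians, without a list test. Alternatives changed the arrays used, the scaling, the filter, the probe set and the test. Arrays count as biological replicates because their labels say so, and their numbers served as a block in 1 alternative only.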

Additional observations from a re-analysis of the deposited data

How the results depend on the processing

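Arrays were 3 per group, so small differences could not be resolved, and signal over background was not tested per probe set. Of the 40 proteasome genes, 24 kept their side of the limit in every alternative run for them, but 14 of these 24 had a fold change that turned sign in some alternative without passing. Over the whole list, the sign turned in some alternative for 17 of the 40 genes and for 18 of the other pathway genes. Psma3, Psmb5, Psmd1 and Psmd7 passed in all 17, whereas Psmb2 lost its call in 9, Psmb7 in 8, Psmd13 in 7 and Psmd10 in 4.

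The number of proteasome genes lower (5) was 3 with the replicate block, with fast fibre scaling and with quantile normalization repeated. That was 7.5%, against 12.9%, 12.2% and 16.5% of all genes in these fits. The number was 8 (20%) with equal medians and with array weights, against 21.6% and 21.7% of all genes. It was also 8 with the brightest probe set free of shared-transcript marks, against 17.1% (an alternative chosen after seeing the data). With the mean of all probe sets it was 10, and with the probe set of smallest p 12 (25% and 30%, against 18.8% and 22.5% of all genes). The number higher (3) was 1 with equal medians (2.5%, against 13.5% of all genes). The number past 1.5-fold (1) was 0 with fast fibre scaling and with the mean of all probe sets, and 2 with the smallest p. Leaving out 1 array gave 1 to 3 higher and 3 to 5 lower. In these fits 10.3% to 21.1% of all genes were higher and 8.88% to 19.5% lower. The number higher was 1 without TFEB replicate 3, GFP replicate 1 or GFP replicate 3, and the number lower was 3 without any array but GFP replicate 2.

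The core median (-0.041) was -0.11 with equal medians, 0.034 with fast fibre scaling, -0.00997 with quantile normalization repeated, -0.025 with array weights, -0.057 with the mean of probe sets and -0.16 with the smallest p. The cap median (-0.033) was -0.10, 0.041 and -0.10 with equal medians, fast fibre scaling and the smallest p. Core minus cap (-0.0073) was -0.052 with the smallest p, and positive with array weights (0.021), without shared-transcript marks (0.028, cap median -0.069) and with means in place of medians (0.0067). Leaving out 1 array gave core medians from -0.042 to -0.0017, cap medians from -0.056 to -0.023 and differences from -0.019 to 0.054, the last without GFP replicate 2.

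Of the other pathway genes, the number higher (3) was 1 with the replicate block, equal medians and the mean of probe sets, and 5 with array weights. The number lower (8) was 13 with the smallest p (38.2%, against 22.5% of all genes) and 5 with the methods' two-tailed test (14.7%, against 11.4%). Leaving out 1 array gave 1 to 6 higher and 4 to 8 lower. Over all genes, 2081 were higher and 2079 lower. Equal medians gave 1671 and 2673, moving the median by -0.069, fast fibre scaling gave 2552 and 1517, moving it by 0.075, and the two-tailed test gave 1354 higher. Leaving out 1 array gave 1271 to 2619 higher and 1101 to 2418 lower.

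The sign turned with a call on either side for Psmd11, at -0.27 with the smallest p and -0.28 without shared-transcript marks, for Txnl1 (-0.32) and Ubqln4 (-0.33) with the smallest p, and for Psmb9 and Psmb10 without GFP replicate 2. Leaving out 1 array gave -0.57 to 1.05 for Psmb9 and -0.55 to 0.57 for Psmb10, the highest without GFP replicate 2. The cause was not tested. The replicate numbers did not pair the arrays, since deviations of same-numbered arrays correlated at 0.42, 0.17 and -0.23.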
